A study of Mus musculus with 6 samples.

Results

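Maternal regulators of zygotic genome activation are proteins that the oocyte provides, as messenger RNA or protein, for the start of transcription in the embryo. The set described here held 9 genes chosen by name under that heading, as the rows of Pou5f1, Trim24, Trim28, Smarca4, Ctcf, Yap1, Nr5a2, Tead4 and Sall4 among the 25239 genes of the deposited count table. All 9 were in the table, 8 had counts, and the same 8 passed the filter on low counts. Tead4 had 0 counts in all 6 libraries, so these data do not show its RNA as provided by the oocyte. Counts came from 6 Smart-seq3 libraries, a method that amplifies the polyadenylated RNA of single cells, made from oocytes at the germinal vesicle (GV) stage, in which the nucleus is intact and meiosis is arrested. In 3 libraries the complex of oocyte and cumulus cells had been injected with water, and in 3 with a mixture of phthalate metabolites, the products the body makes of phthalate plasticizers. Both groups came from outbred CD-1 females aged 4 to 6 weeks and passed through the same maturation medium with follicle-stimulating hormone. The labels give neither the dose nor the composition of the mixture. They name no animal or culture, and the protocol can be read as 1 oocyte per group or per library, so each group was treated as 1 sample and no difference between the groups was tested.

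A fully grown oocyte is nearly silent in transcription and lives on stored RNA until the embryo switches on its own genome. Among the 9 genes, Pou5f1, Sall4 and Nr5a2 encode proteins that bind DNA in a sequence-specific way and act in the pluripotency network. Yap1 encodes the coactivator that the Hippo pathway keeps out of the nucleus, and Tead4 one of the TEAD proteins through which YAP1 reaches DNA. Smarca4 encodes BRG1, a motor subunit of SWI/SNF chromatin remodelling complexes, and Ctcf the protein that bounds chromatin loops. Trim24 and Trim28 encode relatives of the TIF1 family that read or silence chromatin.

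Start-site sequences were matched in the RefSeq promoter table (GRCm38.p6) for 7 of the 9 genes, as 10 windows that run from 250 bases before to 50 bases after an annotated start. Tead4 and Sall4 were not matched. The first window of Pou5f1, of its 2, and those of Yap1 and Nr5a2 are shown because these genes span the range of the 7 matched genes: the highest level per length, the steadiest level, and the lowest and most variable level. Capitals mark matches on either strand to CCAAT (the NFY box), GGAATG (the TEAD box) and TCAAGG (the core of the NR5A2 box).
Pou5f1, chr17:35505782-35506081, plus strand: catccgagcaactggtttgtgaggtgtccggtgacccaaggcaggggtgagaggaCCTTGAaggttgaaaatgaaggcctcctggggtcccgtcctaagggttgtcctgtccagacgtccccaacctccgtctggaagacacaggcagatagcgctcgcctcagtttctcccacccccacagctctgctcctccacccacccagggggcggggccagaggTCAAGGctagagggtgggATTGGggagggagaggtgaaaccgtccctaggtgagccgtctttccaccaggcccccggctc
Yap1, chr9:8004547-8004846, minus strand: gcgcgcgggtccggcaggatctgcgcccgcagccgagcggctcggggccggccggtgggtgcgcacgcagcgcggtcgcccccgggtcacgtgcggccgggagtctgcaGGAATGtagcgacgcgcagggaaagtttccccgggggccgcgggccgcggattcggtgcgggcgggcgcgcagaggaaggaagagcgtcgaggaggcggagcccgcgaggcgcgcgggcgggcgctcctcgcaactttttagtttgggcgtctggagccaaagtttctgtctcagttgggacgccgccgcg
Nr5a2, chr1:136960399-136960698, minus strand: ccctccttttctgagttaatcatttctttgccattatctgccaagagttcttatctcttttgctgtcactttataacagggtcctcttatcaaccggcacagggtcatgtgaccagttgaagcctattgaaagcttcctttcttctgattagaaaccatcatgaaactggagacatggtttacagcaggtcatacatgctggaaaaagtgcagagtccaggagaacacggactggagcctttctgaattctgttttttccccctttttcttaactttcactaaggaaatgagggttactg
Nr5a2, chr1:136953581-136953880, minus strand: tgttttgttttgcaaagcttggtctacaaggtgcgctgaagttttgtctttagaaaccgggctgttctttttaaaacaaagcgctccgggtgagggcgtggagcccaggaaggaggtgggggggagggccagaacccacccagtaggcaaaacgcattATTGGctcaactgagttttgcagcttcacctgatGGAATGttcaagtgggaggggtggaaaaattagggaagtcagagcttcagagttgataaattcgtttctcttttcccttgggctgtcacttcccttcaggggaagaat

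The Pou5f1 window held TCAAGG at 2 places, beginning 195 and 30 bases before the start site, and it was 1 of 10 member windows with these letters, which 14.4% of all 32851 windows of that length hold. GGAATG began 141 bases before the start of Yap1 and 58 bases before the second start of Nr5a2, so 2 of 10 member windows held it, against 14.7% of all windows. CCAAT was in 4 of 10 member windows and in 37.4% of all. The longer NR5A2 box AAGGTCA, which can overlap TCAAGG, the octamer ATGCNAAT bound by POU5F1 and the NOBOX box TAATTG were in 0 member windows, against 4.72%, 3.15% and 8% of all windows. The motifs were picked with the sequences in view, and a match is a run of letters and not a measured binding site. The windows also differed in CpG content. Observed over expected CpG was 1.23 for Yap1, 0.374 for the Pou5f1 window shown, and 0.152 and 0.412 for the Nr5a2 windows. It exceeded 0.6 in 5 of the 10 member windows (those of Trim28, Ctcf, Yap1 and Smarca4 and the first of Trim24, from 0.761 to 1.23), and in 35.8% of all windows.

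Levels between genes were compared per length, as CPM (a count divided by the library's gene counts and scaled to 1000000) per kilobase of all annotated exons. Pou5f1 had the highest mean level over the 6 libraries, 111 CPM per kilobase (range 95.2 to 125), which placed it at rank 505 of 12543 genes with a count and an annotated length. Sall4 followed with 82.5 (68.8 to 97.4). The ranges of these neighbours overlapped. A gap then separated Sall4 from Trim28, at 40.4 (24.8 to 59.8), and it was the only gap without overlap among the 8 genes with counts. Yap1 (32.9), Ctcf (32.7), Smarca4 (21.03), Trim24 (12.3) and Nr5a2 (10.5) followed on the same per-length scale, each with a range that overlapped that of its neighbour. Nr5a2 ranked at 3765. With the longest annotated transcript as the length, Pou5f1 stood at 184 CPM per kilobase, Yap1 (57.6) moved ahead of Trim28 (51.8) and Trim24 (26.0) ahead of Smarca4 (21.4), and Pou5f1, Sall4 and Nr5a2 kept their places. The gaps differed on that scale: Sall4 (75.02 to 106) overlapped Trim28 (31.8 to 76.6) but not its neighbour in that order, Yap1 (51.0 to 63.0), and it no longer overlapped Pou5f1 (157 to 206).

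**Figure D1:**
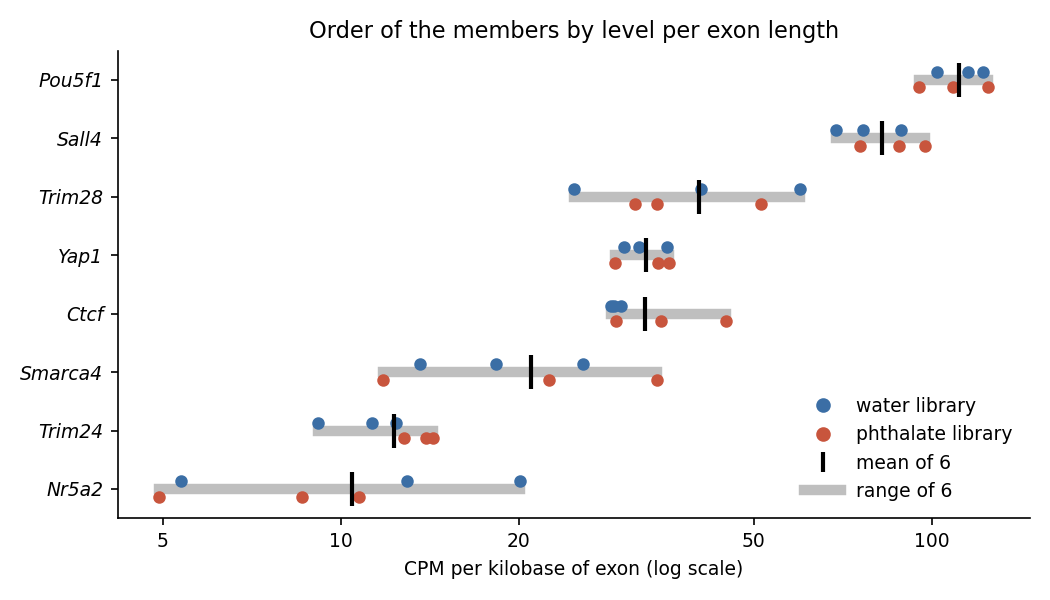
Level of each member with counts, in CPM per kilobase of exon on a log axis. Points are single libraries (blue water, red phthalate), black ticks the mean of 6 and grey bars their range; Pou5f1 and Sall4 stand above 68 CPM per kilobase in every library, and the other ranges overlap with their neighbours.

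Together the 9 genes took 0.159% of the gene counts after water (95% exact binomial interval 0.151 to 0.168, from 1362 counts) and 0.169% after phthalate (0.160 to 0.178, from 1386 counts). By library the share was 0.174%, 0.161% and 0.144% after water (libraries 1 to 3 in order, as in all lists of values here) and 0.180%, 0.180% and 0.145% after phthalate. The groups overlapped, and the third library of each group was the lowest of its group. All intervals given here cover counting error only. Copies made by PCR are not independent molecules, and low counts were mostly even (69.9% of values from 1 to 20), a pattern that counting each mate of a pair would give. Even on counts halved to pairs, all library pairs within a group differed beyond counting noise (chi-square per degree of freedom 1.17 to 2.31). In general the intervals thus understate the spread between libraries.

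The transcription factors came first. Pou5f1 (ENSMUSG00000024406.16, chr17:35506018-35510772, plus strand, GRCm38), which encodes OCT4, the POU-family factor of pluripotent cells, stood at 275, 259 and 229 CPM after water and at 214, 244 and 280 after the phthalate mixture. The ranges crossed fully, and the highest and the lowest value were both in phthalate libraries. The sums were 217 counts (95% exact Poisson interval 189 to 248) and 203 counts (176 to 233). Their log2 ratio of phthalate over water, scaled by TMM factors, was -0.024 (95% exact interval -0.31 to 0.26).

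Sall4 (ENSMUSG00000027547.17, chr2:168748332-168767943, minus strand), which encodes a zinc-finger factor that works with OCT4 in embryonic stem cells, had the most counts of the set. The water libraries held 423, 492 and 381 CPM and the phthalate libraries 488, 539 and 418 CPM. The groups overlapped, with the second library highest in each. The sums were 370 counts (333 to 410) and 397 counts (359 to 438), a log2 ratio of 0.17 (-0.034 to 0.38). The paralogs Sall1, Sall2 and Sall3 had 4 counts in all over the 6 libraries, against 767 for Sall4. The profile of Sall4 over the 6 libraries was most like those of Snx2 (Pearson r of log2 CPM 0.985), Tnk2 (0.977) and Rnps1 (0.957) among 4643 other genes. These are the highest of many correlations over 6 points and are given as a description.

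Nr5a2 (ENSMUSG00000026398.14, chr1:136842571-136960448, minus strand), which encodes the orphan nuclear receptor LRH-1, had the largest difference between the groups. The water libraries held 119, 76.4 and 31.7 CPM and the phthalate libraries 63.4, 50.8 and 29.1 CPM. The groups overlapped: water library 3 lay below phthalate libraries 1 and 2. The sums were 64 counts (49.3 to 81.7) and 39 counts (27.7 to 53.3), and the log2 ratio was -0.64 (-1.26 to -0.046), which is 0.641-fold. Leaving out water library 1 gave a log2 ratio of -0.21, leaving out phthalate library 3 gave -0.43, and leaving out water library 3 gave -1.0. With counts halved to read pairs the interval ran from -1.58 to 0.18 and held 0. Nr5a2 reached 10 counts in 2 water and in 2 phthalate libraries, so it did not pass the filter through one group alone.

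Nr5a2 is also a gene of granulosa cells, the follicle cells around the oocyte, so their other markers were read in the same libraries. The 20 cumulus and granulosa markers, which did not include Nr5a2, summed to 7, 0 and 4 counts after water and to 3, 9 and 2 counts after phthalate. Of them 8 had any count, led by Cyp11a1 and Cyp19a1 with 6 each, and Foxl2, Amh, Amhr2 and Star were at 0 in every library. Water library 2 had 23 Nr5a2 counts and 0 counts of these markers. Its paralog Nr5a1, a gene of steroid-producing cells, was at 0 in all libraries. Markers of the labelled cell type were present: 16 oocyte genes took 2.84% to 3.32% of the counts of a library, with Gdf9 highest (15367 counts in all). Theca and stroma markers had 4 counts over the 6 libraries, all from Dcn in water libraries 1 and 3, and immune markers had 12, led by Csf1r and Laptm5 with 5 each.

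**Figure D2:**
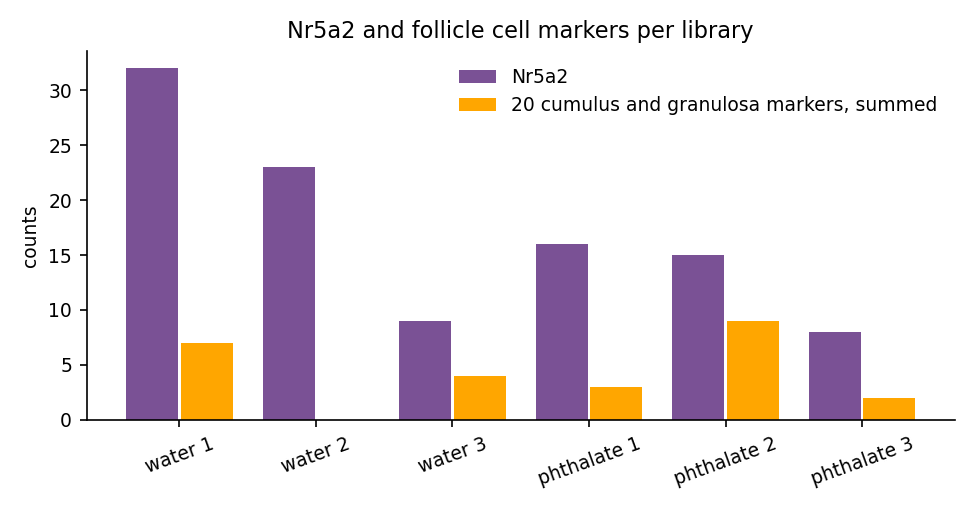
Counts per library of Nr5a2 (purple) and of 20 cumulus and granulosa markers summed (orange), on a linear axis from 0. Nr5a2 ran from 8 to 32 counts, and the markers from 0 to 9, with the highest marker sum in phthalate library 2 and the highest Nr5a2 count in water library 1.

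The coactivator and its DNA-binding partner stood far apart. Yap1 (ENSMUSG00000053110.13, chr9:7931999-8004596, minus strand) stood at 330, 279 and 296 CPM after water and at 333, 319 and 269 after the phthalate mixture. It was the steadiest member: its coefficient of variation over the 6 libraries was 8.86%, against a median of 19.7% over the 630 genes with a mean count from 50 to 100. The sums were 257 counts (226 to 290) and 252 counts (222 to 285), a log2 ratio of 0.044 (-0.21 to 0.30). Tead4 (ENSMUSG00000030353.15, chr6:128224288-128300823, minus strand) had 0 counts in each of the 6 libraries. A count of 0 allows up to 3 counts, which is 9.97 to 11.9 CPM in a single library and 1.79 CPM over all 1676410 counts.

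The other TEAD genes were also near the floor. Tead1 had 12 counts over the 6 libraries, Tead2 7 and Tead3 4, which makes 11 counts for the family after water and 12 after phthalate. Wwtr1, which encodes TAZ, the paralog of YAP1, had 26 counts against 509 for Yap1. Per kilobase of exon, Yap1 stood at 32.9 CPM and Wwtr1 at 3.25. Of the kinases in the Hippo list, Lats1 had 6 counts, all in water library 1, Lats2 2 and Stk4 16, while Stk3 (76) and Taok1 (172) passed the filter.

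Among the chromatin proteins, Smarca4 (ENSMUSG00000032187.16, chr9:21616169-21704230, plus strand) varied most. The water libraries held 119, 166 and 88.1 CPM and the phthalate libraries 222, 146 and 76.4 CPM. Both the highest and the lowest value lay in the phthalate group, 2.91-fold apart. The sums were 107 counts (87.7 to 129) and 120 counts (99.5 to 144), a log2 ratio of 0.24 (-0.15 to 0.63). Leaving out phthalate library 1 turned the ratio to -0.12, and leaving out water library 2 gave 0.53. The coefficient of variation was 39.6%, against a median of 27.8% over the 1706 genes with a mean count from 20 to 50. Smarca2, which encodes BRM, the alternative motor subunit, stood at 53, 52 and 47 counts after water and at 51, 53 and 53 after the phthalate mixture.

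Ctcf (ENSMUSG00000005698.15, chr8:105636568-105682922, plus strand) stood at 145, 140 and 141 CPM after water and at 218, 170 and 142 after the phthalate mixture. The water values lay close together, and phthalate library 3 lay among them. The sums were 121 counts (100 to 145) and 144 counts (121 to 170), a log2 ratio of 0.32 (-0.036 to 0.68). Ctcfl, the paralog of male germ cells, was at 0 in every library. Gm5914 and Agrp, which lie over Ctcf on the opposite strand in GENCODE M21, had 0 counts.

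Of the TRIM genes, Trim24 (ENSMUSG00000029833.17, chr6:37870811-37966296, plus strand), which encodes the histone reader TIF1-alpha, was the only member whose groups did not overlap in CPM. The water libraries held 77.9, 96.4 and 106 CPM and the phthalate libraries 119, 122 and 109 CPM. The lowest phthalate library (109 CPM) lay just above the highest water library (106 CPM). The sums were 80 counts (63.4 to 99.6) and 96 counts (77.8 to 117), and the log2 ratio was 0.34 (-0.11 to 0.78), an interval that held 0.

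Trim28 (ENSMUSG00000005566.14, chr7:12999114-13031035, plus strand), which encodes KAP1, the corepressor that KRAB zinc-finger proteins recruit, stood at 249, 103 and 169 CPM after water and at 143, 214 and 131 after the phthalate mixture. Here the extremes were both water libraries, 2.41-fold apart. The sums were 146 counts (123 to 172) and 135 counts (113 to 160), a log2 ratio of -0.041 (-0.39 to 0.31). It moved to 0.28 without water library 1 and to -0.31 without water library 2. The GENCODE model of Trim28 overlaps Zbtb45 on the opposite strand (37 counts over the 6 libraries), and the use of strand in counting is not given in the sources used here. Trim33, a relative in the TIF1 family, had 34 counts and Trim66 had 0.

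**Figure D3:**
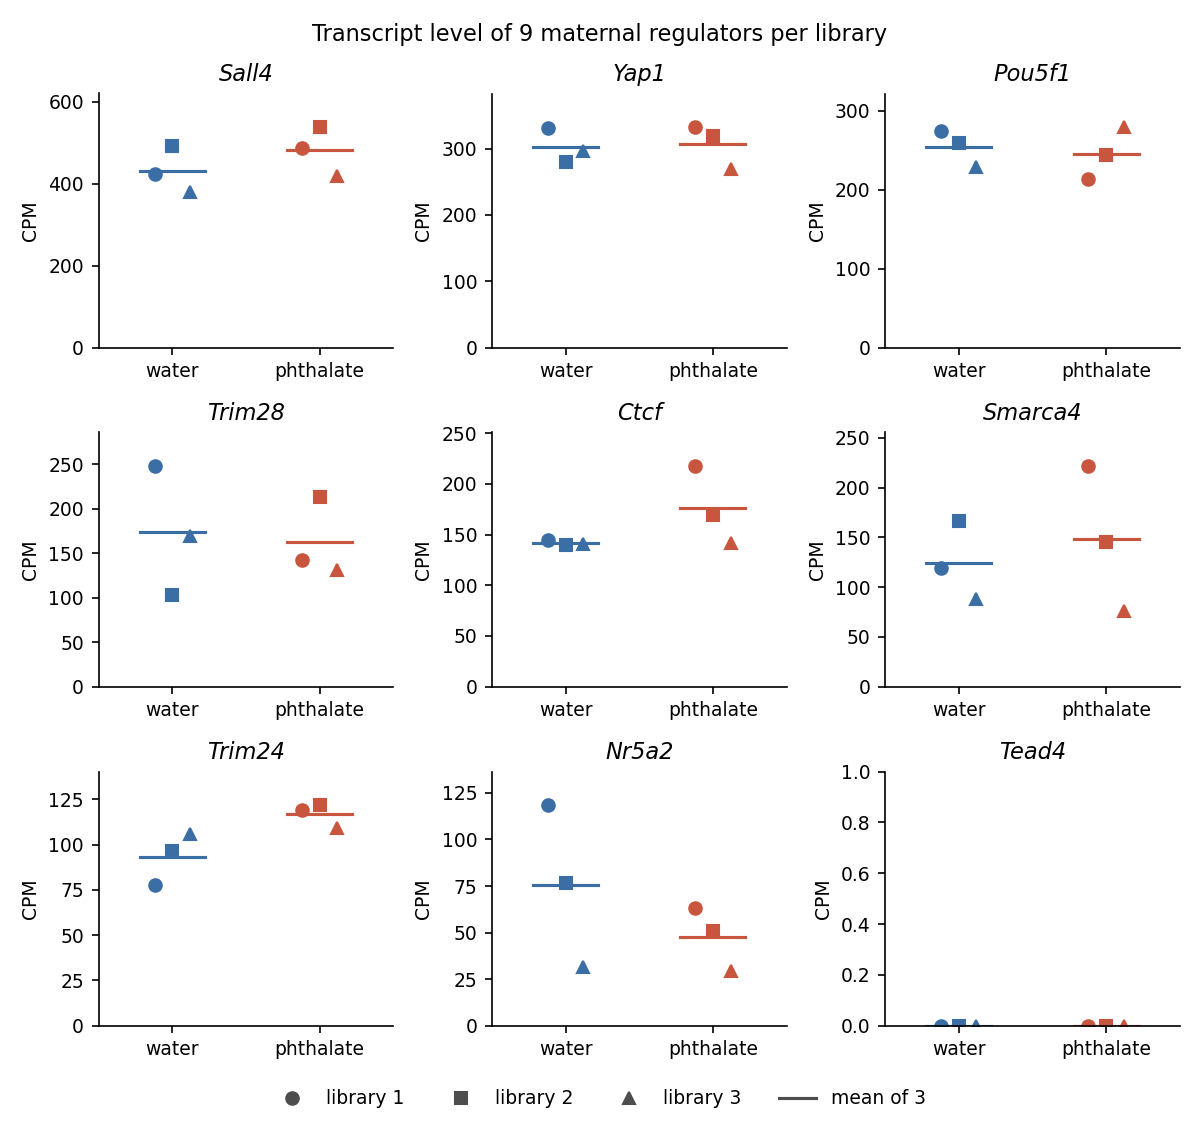
CPM of the 9 members per library, 1 panel per gene with its own linear axis from 0; symbols are libraries 1 to 3 of a group and bars the mean of 3. Trim24 is the only gene whose 3 phthalate values (109 to 122 CPM) all lie above its 3 water values (77.9 to 106 CPM), and Tead4 is at 0 throughout.

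Beside all genes, the members' counts lay near the background. Of the 8 filtered members, 5 had a log2 ratio above 0 and 3 below, with a median of 0.11, beside 0.0089 over the 4644 genes that passed the filter. None was at least 1.5-fold higher in the phthalate group, where 6.96% of all filtered genes were, and 1, Nr5a2, was at least 1.5-fold lower, where 8.14% were. Trim24 was the 1 member of 8 whose groups did not overlap in CPM, a separation found in 10.0% of all filtered genes. On TMM-scaled CPM the members were 2, Trim24 and Ctcf, beside 10.1% of all filtered genes. The interval held 0 for 7 of the 8 members. Without water library 2 it excluded 0 for Sall4 and Smarca4, and without phthalate library 3 for Ctcf and Smarca4. For Nr5a2 it held 0 in each of these omissions and also without water library 1 or phthalate library 2. These intervals leave out the spread between libraries and are not tests of a difference between the groups. At these depths (252267 to 300917 gene counts per library), an interval that holds 0 does not show that levels were alike. For Pou5f1, Sall4, Yap1 and Trim28 the counting interval lay within 1.5-fold either way, and for Trim24, Ctcf and Smarca4 it reached past 1.5-fold higher. That of Trim28 passed 1.5-fold in some omissions. Its log2 bound was 0.70 without water library 1, -0.68 without water library 2 and -0.71 without phthalate library 2. The middle 90% of filtered genes ran from a log2 ratio of -0.72 to 0.67, and all 8 members lay inside it.

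**Figure D4:**
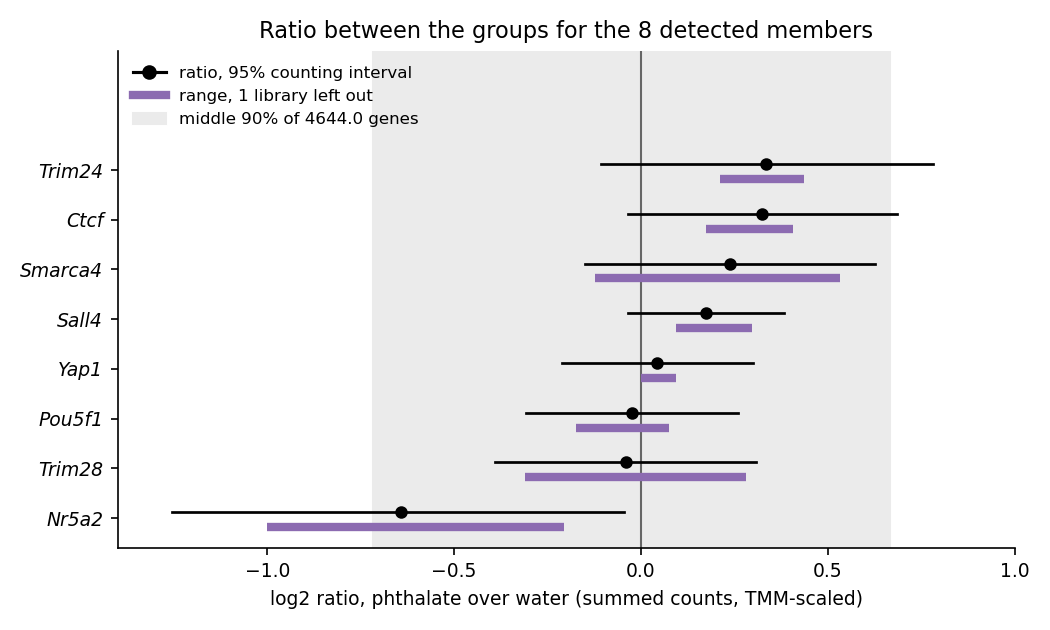
Log2 ratio of phthalate over water for the 8 members with counts (points, with the 95% interval of counting error), the range when any 1 library is left out (purple bars) and the middle 90% of 4644 filtered genes (grey, -0.72 to 0.67). Intervals cross 0 for every gene but Nr5a2, and the purple bars of Pou5f1, Trim28 and Smarca4 cross 0.

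Partners of these proteins were read from lists of genes chosen by name. Of 36 other maternal activators, 29 had counts and 19 passed the filter, with a median log2 ratio of -0.042. Dppa3, which encodes the maternal protein Stella, and Obox2, an oocyte homeobox gene, had the highest levels, 3878 and 746 CPM per kilobase, which set Pou5f1 (111) well below them. Taf7, which encodes a subunit of the general factor TFIID, stood at 102, 115 and 102 counts after water and at 129, 128 and 125 after the phthalate mixture, a log2 ratio of 0.33 (0.11 to 0.55). Dppa2, whose protein works upstream of early embryonic genes, had a log2 ratio of -0.57 (-1.13 to -0.030), which ran from -1.03 without phthalate library 2 to -0.23 without phthalate library 3 and was past 1.5-fold in 4 of 6 omissions. At least 1.5-fold higher were Usf1 (0.88) and Hsf1 (0.87), and at least as much lower were Ep300 (-0.79) and Ahctf1 (-1.08), on the log2 scale. These are 2 and 2 of 19 genes, beside 6.96% and 8.14% of all filtered genes. Hsf1 came to 0.56 without phthalate library 3 and Ep300 to -0.51 without water library 3, both short of 1.5-fold. These 4 genes have a mean count below 20 and were picked after their values were seen.

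Of 26 SWI/SNF subunits besides Smarca4, 23 had counts and 15 passed the filter. Their median log2 ratio was 0.14, with 12 above 0 and 3 below, beside 51.2% of all filtered genes above 0, and over the alternatives it ran from 0.097 to 0.37. Smarcd2 (48.8 CPM per kilobase) and Arid1a (36.5) had the highest levels, Smarcd2 with a log2 ratio of -0.12 (-0.37 to 0.18 with 1 library left out), and Smarca4 itself stood at 21.03. Ss18, which encodes a small subunit, was the 1 gene of 15 at least 1.5-fold higher (6.96% of all filtered genes were), with 14, 13 and 22 counts after water, 30, 24 and 31 after the phthalate mixture and a log2 ratio of 0.87 (0.34 to 1.41).

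Of 16 CTCF partners, cohesin subunits and regulators together with the DNA-binding factors Ctcfl, Zfp143 and Maz, 14 had counts and 9 passed the filter. The median log2 ratio was -0.25, and leaving out water library 1 or water library 3 brought it to -0.032 or -0.034. With no filter on low counts it was also -0.032. For 4 of the 9 the groups did not overlap, beside 10.0% of all filtered genes, and these were named after their values were seen, apart from Nipbl and Smc3. Both subunits of the cohesin loader were among them, in opposite directions. Nipbl stood at 40, 42 and 37 counts after water and at 54, 67 and 51 after the phthalate mixture, a log2 ratio of 0.60 (0.26 to 0.95), which was short of 1.5-fold without phthalate library 2 (0.556) or water library 3 (0.563). Mau2 had 18, 27 and 19 counts against 3, 14 and 7, a ratio of -1.34 (-2.08 to -0.65) that ran from -1.94 to -0.99 with 1 library left out. Its counts fell below 10 in phthalate libraries 1 and 3, so it passed the filter through the water group, where it was higher. The median of the list and the count of 4 include it. Rad21, which encodes the kleisin of cohesin in dividing cells, had 71 counts after water and 37 after phthalate, a log2 ratio of -0.87 (-1.48 to -0.28). Smc3, the highest of the list at 60.1 CPM per kilobase, had a ratio of -0.26 (-0.51 to -0.014), and Esco2, next at 47.8, had -0.0094.

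Of 20 Hippo genes besides the 2 members, 18 had counts but only 5 passed the filter, with a median log2 ratio of -0.47. Vgll4, which encodes a protein that competes with YAP1 for TEAD, stood at 23, 44 and 20 counts after water and at 14, 24 and 9 after the phthalate mixture, a log2 ratio of -0.82 (-1.36 to -0.29). It came to -0.41 without water library 2 and to -0.584, just short of 1.5-fold, without phthalate library 3. Nf2, an upstream activator of the pathway that was named after its values were seen, had a ratio of -0.74 (-1.33 to -0.17), and without phthalate library 1 it was -0.42. Taok1 had a ratio of -0.47, which ran from -0.85 without phthalate library 2 to -0.11 without phthalate library 3 and was past 1.5-fold in 3 of 6 omissions. Limd1 had one of 0.018 (-0.495 to 0.38 over the omissions). Yap1 itself stayed between 0.0012 and 0.093 with 1 library left out.

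Of 24 TRIM28 partners and TIF1 relatives, 22 had counts and 15 passed the filter, and none was 1.5-fold higher or lower, beside 6.96% and 8.14% of all filtered genes. Their median log2 ratio was -0.056. Zfp57, which encodes the zinc-finger protein that brings TRIM28 to imprinted loci, had the highest level, 842 CPM per kilobase against 40.4 for Trim28, and a ratio of 0.13 (0.056 to 0.21) that turned to -0.066 without phthalate library 3 and came to 0.056 without water library 1. Rbbp7 followed at 717 CPM per kilobase with a ratio of 0.067 (-0.029 to 0.16). Setdb1, which encodes the histone methyltransferase that TRIM28 recruits, stood at 65, 96 and 81 counts after water and at 30, 88 and 46 after the phthalate mixture, a ratio of -0.49 (-0.78 to -0.20) that was -0.24 without phthalate library 1, and past 1.5-fold without phthalate library 2 (-0.93) or water library 1 (-0.60). Mbd3 had a ratio of 0.16, which ran from -0.083 to 0.37 with 1 library left out.

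Of 20 genes of the pluripotency network, 16 had counts and 5 passed the filter, with a median log2 ratio of -0.0044. Sox2 and Nanog, which encode partners of OCT4 in stem cells, had 4 and 2 counts over the 6 libraries. Tcl1 (1766 CPM per kilobase) and Dppa5a (913) led the list, both with ratios near 0 (-0.052 and -0.0044). Pou2f1, which encodes the widely expressed relative OCT1, stood at 9, 17 and 23 counts after water and at 24, 29 and 28 after the phthalate mixture, a log2 ratio of 0.80 (0.27 to 1.34), and without water library 1 it was 0.53. Esrrb, named after its values were seen, had a ratio of -0.85 (-1.58 to -0.15), from 51 and 27 counts. Its counts fell below 10 in phthalate libraries 1 and 2, so it passed the filter through the water group, where it was higher. With 1 library left out the ratio ran from -1.36 to -0.60, and the interval held 0 without phthalate library 1 or phthalate library 2.

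Transcripts that the embryo makes at genome activation were scarce. Of 24 such genes in the table, 11 had 0 counts in all libraries, among them Dux, Zscan4f and Zfp352, and 2 passed the filter. Among the latter was Tcstv1, with 26 counts after water and 31 after phthalate (log2 ratio 0.33, -0.47 to 1.14). Without water library 2 the ratio of Tcstv1 was -0.047. Zscan4d, a gene of the cluster that marks the activating embryo, stood at 6, 1 and 0 counts after water and at 7, 4 and 0 after the phthalate mixture, and its near-identical copies can share reads.

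**Figure D5:**
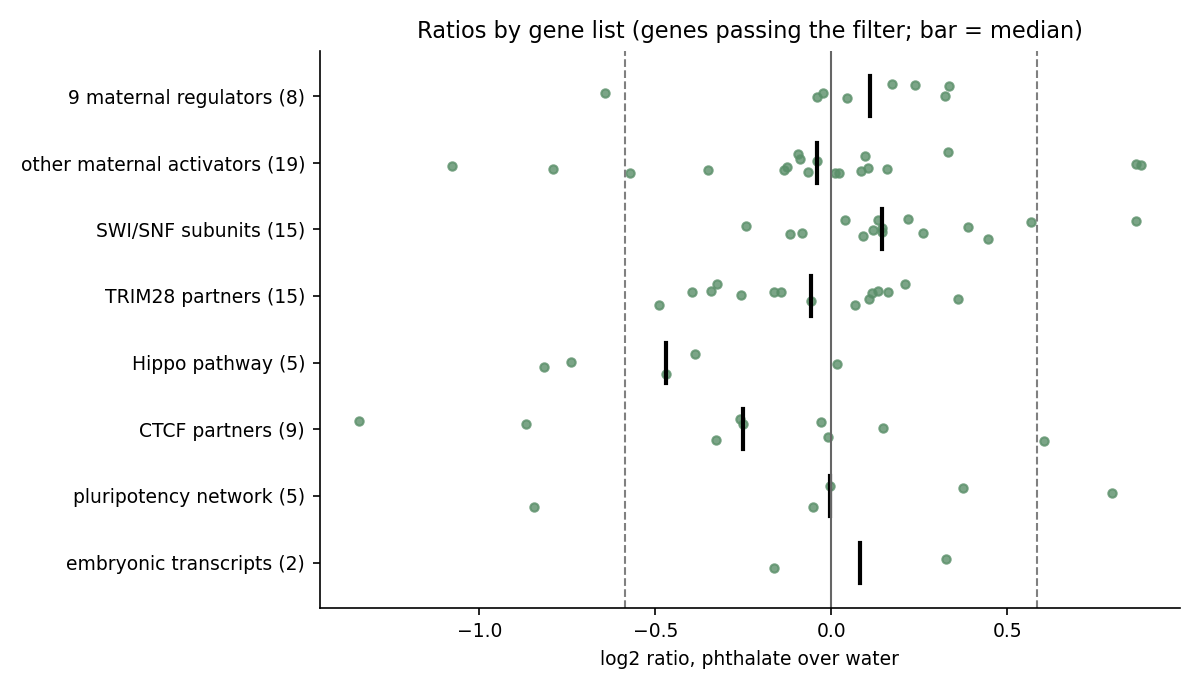
Log2 ratio of phthalate over water for the genes of each list that passed the filter (points; number in brackets), with the median as a black bar and dashed lines at a ratio of 1.5 in either direction. The 8 members lie between -0.64 and 0.34. Medians of the other activators, TRIM28 partners and pluripotency network are just below 0 (-0.042, -0.056 and -0.0044). The Hippo and CTCF partner lists have the lowest medians, -0.47 from 5 genes and -0.25 from 9. The CTCF median came to -0.032 without water library 1 and to -0.034 without water library 3.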

How the data were processed

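Polyadenylated RNA of GV oocytes was amplified by Smart-seq3, made into Nextera XT libraries and sequenced on a MiSeq as pairs of 150 bp reads, per the labels' protocols. The table the authors deposited holds raw counts, as whole numbers, of 25239 gene symbols and of 92 synthetic ERCC RNAs, the latter left out here. The submitters' processing notes name cutadapt, Trimmomatic, HISAT2, DESeq2 and the build mm10. The counting tool, the annotation and the handling of strand and molecular identifiers are not given in the sources used here. Within each group all library pairs differed beyond counting noise (chi-square per degree of freedom 1.17 to 2.31 on counts halved to pairs). The highest values, 2.31 and 1.87, were those of phthalate library 3 against phthalate libraries 1 and 2.

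CPM was a count divided by the gene counts of its library, times 1000000. Group sums were divided by totals scaled with TMM (edgeR 4.0.16, R 4.3.3) over the 4644 genes that passed filterByExpr (minimum count 10, minimum total 15), and given as log2 ratios with 95% intervals from the Clopper-Pearson bounds on the phthalate share of the summed counts. The script was tested on simulated data. The log2 CPM of the likeness measure used a prior count of 0.5. DESeq2 1.42.0 gave alternative size factors. Lengths and positions came from GENCODE M21 (GRCm38, the mm10 build), which held 96.5% of the symbols, and overlapping genes were looked up for the 9 members only. The labels number 3 libraries a group without tying them to animals or cultures; the groups were therefore treated as 1 sample each, untested. The genes named are all members and, from each list, the 2 highest per kilobase and, at a mean count of at least 20, those with the largest and the smallest ratio, and from each list of cell markers the gene with most counts. Other genes were named as relatives of a member or after their values were seen. A gene of the embryonic list that this rule names is not reported here. For the member with most counts, the 3 most correlated genes were named. The members and lists were chosen with earlier results of these data known. Alternatives were total counts, DESeq2 factors, no filter, mean CPM, removal of Rn45s, read pairs, the longest transcript and each library left out.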

Additional observations from a re-analysis of the deposited data

How the results depend on the processing

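No paired analysis was possible because the labels do not say what a shared replicate number marks, and the values come from no model that could hold a block. Over total counts, DESeq2 factors, no gene filter, mean CPM, removal of Rn45s and each library left out in turn, the median log2 ratio of the 8 members ran from 0.040 to 0.16. With 1 library left out, the number of members at least 1.5-fold lower ran from 0 to 1: it was 0 without water library 1 and 0 without phthalate library 3. The number whose groups did not overlap ran from 1 to 2 with 1 library left out, and it was 2 on TMM-scaled CPM. Trim24 was among them each time. Ctcf was the other on TMM-scaled CPM, without water library 1 and without phthalate library 3, and Nr5a2 without water library 3; groups of 2 against 3 separate more readily by their construction. The scaling choices moved the median of all filtered genes from 0.0089 to between -0.0082 and 0.0096, and keeping all 12804 genes with a count gave 0.040. Of 11 alternatives, the median of the pluripotency list changed sign in 5, that of the other maternal activators in 2 and that of the TRIM28 partners in 1. The log2 ratio changed sign with 1 library left out for Pou5f1 (-0.17 to 0.075), Trim28 (-0.31 to 0.28) and Smarca4 (-0.12 to 0.53), and kept its sign in all 6 omissions for the other 5 members. Among list genes whose ratio is given, Zfp57, Smarcd2, Limd1, Mbd3, Rbbp7, Tcl1, Dppa5a, Esco2 and Tcstv1 also changed sign in at least 1 omission. The difference in the summed share of the 9 genes, 0.0091 percentage points, ran from 0.0015 to 0.021 over the omitted libraries. Halving counts to read pairs, tried for the members alone, widened all 8 intervals, and the interval of Nr5a2 then held 0. Depth limits the low members most: Nr5a2 had a mean of 17.2 counts per library, and at these depths the 0 counts of Tead4 over all 6 libraries allow up to 1.79 CPM.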

Other observations

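The genes of this paragraph were picked after their values were seen. Dnmt1, which encodes the maintenance DNA methyltransferase and stood in the list of TRIM28 partners, was lower in every phthalate library than in any water library in CPM. Its counts were 965, 1026 and 1131 after water and 831, 815 and 839 after the phthalate mixture, a log2 ratio of -0.26 (95% counting interval -0.33 to -0.18), with -0.31 to -0.17 when 1 library was left out. Gatad2b, which encodes a subunit of the NuRD deacetylase complex, was the other gene of the 15 in that list whose groups did not overlap, beside 10.0% of all filtered genes, with 289 summed counts after water, 217 after phthalate and a log2 ratio of -0.34 (-0.60 to -0.082). Among the 16 oocyte markers Kit, the receptor of the oocyte for the ligand of granulosa cells, was the only one past 1.5-fold, in the lower direction, where 8.14% of all filtered genes were. It had 48, 45 and 86 counts after water and 34, 33 and 43 after phthalate, a log2 ratio of -0.63 (-0.99 to -0.28), which came to -0.26 when water library 3 was left out and to -0.48 when phthalate library 2 was.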
